A study of Homo sapiens with 4 samples.

Results

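The genes described here encode the subunits of the mitochondrial respiratory chain and of the ATP synthase it drives. They were chosen by symbol: NDUFA, NDUFB, NDUFC, NDUFS and NDUFV genes for complex I, the SDH genes for complex II, CYC1 and UQCR genes for complex III, COX4 to COX8 genes for complex IV, and ATP5F, ATP5M and ATP5P genes for complex V. This gave 85 of the 16057 genes in the table, 39 in complex I, 4 in complex II, 10 in complex III, 13 in complex IV and 19 in complex V. The symbols pick nuclear genes only. The series' title places the study in mitochondrial proteostasis, and the comparison asks how the transcripts of each complex stood after the drug.

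All 4 libraries come from MM.1S, a long-established line of human multiple myeloma cells, grown in RPMI-1640 medium with fetal bovine serum. Cultures were exposed for 26 h either to 350 nM JG342, which inhibits HSP70 chaperones at an allosteric site, or to DMSO alone as the vehicle. Each group has 2 libraries, numbered 1 and 2 and described by the submitters as biological duplicates, and total RNA was sequenced. The study used a single cell line, so the values describe that line alone.

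Complex I takes electrons from NADH and complex II takes them from succinate, and both pass them to coenzyme Q. Complex III moves them on to cytochrome c, and complex IV, cytochrome c oxidase, hands them to oxygen. Complexes I, III and IV pump protons across the inner membrane, and complex V lets them back through a rotating ring of c subunits to make ATP. Most subunits are encoded in the nucleus and imported by machinery that uses mitochondrial HSP70, while a few core subunits are encoded in mitochondrial DNA.

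Values are in TPM, a share of each library's transcripts that is scaled for gene length. The library totals ran from 994463 to 994718 TPM, and 1118 to 1418 genes per library were listed at 0. TPM keeps no record of depth, so counting error is unknown. As in any bulk sample, fewer cells of a type and less RNA per cell cannot be told apart. All 9 plasma cell markers were detected. Their sum was 14840 and 14570 TPM with DMSO and 10670 and 10030 with JG342, a difference carried by JCHAIN, the joining chain of secreted antibodies, at 9907.16 and 10383.46 TPM with DMSO and 5731.52 and 5430.98 with JG342. The other 8 markers summed to 4928 and 4187 TPM with DMSO and 4936 and 4598 with JG342. Within these 8, IRF4 was higher, at 352.88 and 352.64 TPM with DMSO and 588.51 and 615.17 with JG342. PRDM1 was also higher, at 176.50 and 154.02 against 220.17 and 204.60. TNFRSF17 was lower, at 760.95 and 581.50 against 517.49 and 462.75. These 3 passed the limma threshold used below, or 37.5% of the 8 against 18.4% of all genes, and the other 5 did not. The T cell markers summed to 5.76 and 7.84 TPM with DMSO and 5.26 and 3.21 with JG342, and the myeloid markers to 76.53 and 84.76 against 82.34 and 79.67. The part of any of these in the results below was not tested.

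The respiratory genes were abundant. Of the 85, 83 averaged at least 1 TPM over the 4 libraries and entered the fit, and NDUFC2-KCTD14 and COX7A1 did not. The median of their mean levels was 257 TPM, against 21.4 TPM for all 12042 genes fitted. By complex, the median level was 481 TPM in complex IV, 371 in complex V, 200 in complex I, 182 in complex III and 166 in complex II. ATP5F1B, the catalytic beta subunit of ATP synthase, had the highest mean level, at 886.63 and 1069.87 TPM with DMSO and 850.33 and 907.03 TPM with JG342.

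Most respiratory transcripts stood slightly lower with JG342, and few moved far. The summed level of all 85 genes was 25430 and 25690 TPM with DMSO and 23410 and 23770 TPM with JG342, a mean difference of -7.68%, and both JG342 sums lay below both DMSO sums. The same genes held 2.56% and 2.58% of the library total with DMSO and 2.35% and 2.39% with JG342. The median log2 fold change on the log2(TPM + 1) scale, JG342 against DMSO, was -0.09 for the 83 genes and 0.03 for all genes. Of the 83, 59 were below 0 and 24 above, while 46.5% of all genes were below 0. Under quantile normalization the respiratory median was -0.04 and that of all genes -0.03.

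With limma and a Benjamini-Hochberg adjusted p of 0.05 over all genes, 9 of the 83 passed, 3 higher and 6 lower. The share that passed was 10.8%, against 18.4% of all genes fitted. The higher share was 3.61% against 10.8% of all genes, and the lower share 7.23% against 7.62%, so the lower calls came at about the background rate. Both JG342 libraries lay below both DMSO libraries for 39 of the 83 genes, or 47.0%, against 28.2% of all genes. Both lay above for 12, or 14.5%, against 34.0% of all genes. With the replicate number as a block, 6 of the 83 passed as higher and 21 as lower, where 19.2% of all genes passed as higher and 15.7% as lower. The block fit took each gene's spread from the mean-variance trend alone (infinite prior degrees of freedom), so its p values can be too small. With a library left out, fewer of the respiratory genes passed, and so did fewer of all genes. Without the mean-variance trend 3 of the 9 passed, NDUFA4L2, NDUFV2 and ATP5MC1, and without the filter on low values 7 of the 9 passed, all but NDUFV3 and NDUFS6. Of all genes, 12.5% passed without the trend and 5.16% without the filter.

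**Figure D1:**
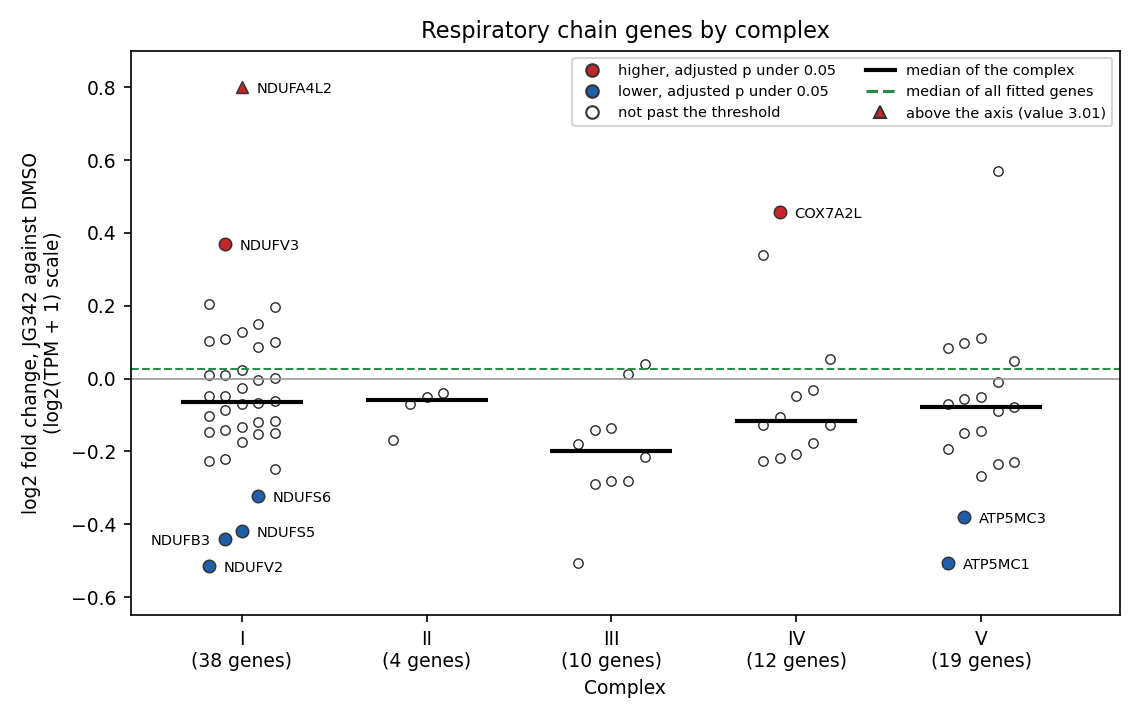
Log2 fold change of each of the 83 fitted genes (y axis, JG342 against DMSO on the log2(TPM + 1) scale) by complex (x axis), with black lines for the median of each complex, a dashed line for the median of all fitted genes, and the 9 genes past the limma threshold filled and named. The 5 medians lie a little below 0, and NDUFA4L2, drawn as a triangle at the top edge, is off the axis at 3.01.

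The 5 complexes all had medians below 0, and complex III had the lowest. The medians were -0.06 for complex I, -0.06 for complex II, -0.20 for complex III, -0.12 for complex IV and -0.08 for complex V. In the pair of libraries numbered 1, complex III was lowest at -0.22, but in the pair numbered 2 complex II was lowest at -0.20, beside -0.16 for complex III. Subunits are not replicates, so no test was made between complexes. Without DMSO replicate 2 the complex II median was 0.02.

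Summed TPM told the same order for complex III. Its sum was 2188 and 2241 TPM with DMSO and 1879 and 1970 TPM with JG342, a mean difference of -13.1%. The differences were -6.34% for complex I, -6.50% for complex II, -6.66% for complex IV and -8.59% for complex V. For each complex both JG342 sums lay below both DMSO sums, also after scaling the libraries to equal medians and after leaving out the 10 highest genes. With equal medians the differences were larger, from -10.7% for complex I to -17.1% for complex III. That scaling shifted all genes: their median log2 fold change went from 0.0275 to -0.0347. The median of the 83 fitted respiratory genes went from -0.0865 to -0.154. Complex III held 8.60% and 8.73% of the summed level of all 85 genes with DMSO and 8.02% and 8.29% with JG342, while complex I held 36.0% and 35.7% against 36.5% and 36.2%.

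**Figure D2:**
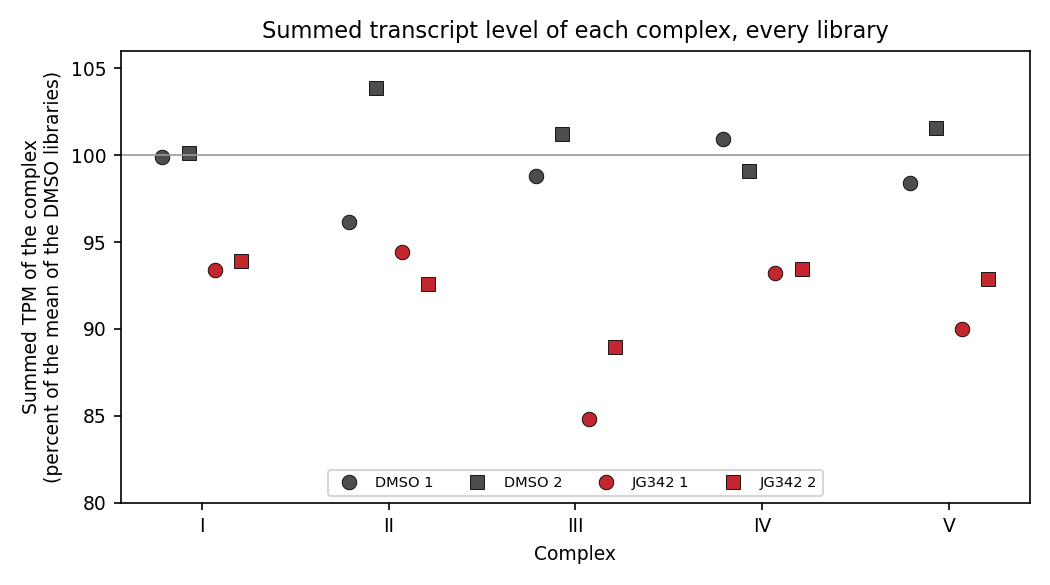
Summed TPM of each complex (x axis) in every library, as percent of the mean of its 2 DMSO libraries (y axis, which does not start at 0), with grey for DMSO, red for JG342, circles for libraries numbered 1 and squares for those numbered 2. In every complex the JG342 points lie below the DMSO points, with the widest gap in complex III and the narrowest in complex II, where JG342 1 and DMSO 1 are close.

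Complex I held 6 of the 9 genes past the threshold, 2 higher and 4 lower among 38 fitted. That was 15.8% of its fitted genes, against 18.4% of all genes. NDUFA4L2 (NM_020142), a paralog of NDUFA4 known as a target of hypoxia signalling, was the exception in size. It was listed at 0.34 and 1.55 TPM with DMSO and at 13.11 and 14.72 TPM with JG342. The groups did not overlap, although the DMSO level was near the bottom of the scale. The DMSO mean, 0.945 TPM, was below the filter of 1 TPM, so the gene entered the fit only through its JG342 libraries. With 2 libraries per group, NDUFA4L2 rose by 3.01 ± 0.28 (standard error) in log2 units, at a limma adjusted p of 0.000325. It passed under every alternative setting tried, at limma adjusted p values up to 0.0301. With each library left out in turn the change ran from 2.55 to 3.47. With a pseudocount of 0.1 in place of 1 the change was 4.04, since the DMSO values are small.

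NDUFA4 itself (217.27 and 190.89 TPM with DMSO, 194.17 and 173.68 TPM with JG342) did not pass, at -0.15 and a limma adjusted p of 0.362. The groups overlapped. NDUFA4L2 made up 0.156% and 0.805% of the summed level of the pair with DMSO and 6.32% and 7.81% with JG342. NDUFA4 is now assigned to cytochrome c oxidase, and RefSeq has renamed both genes accordingly. Counted in complex IV, the pair left complex I with 1 gene higher and 4 lower, and complex IV with 2 higher.

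NDUFV3 (NM_001001503), a small accessory subunit of the NADH-binding module, was the other complex I gene that rose. Its levels were 111.52 and 121.59 TPM with DMSO and 150.10 and 151.28 TPM with JG342, with no overlap. The change was 0.37 ± 0.10 (limma adjusted p = 0.0288). The call was lost with each library left out, at limma adjusted p values from 0.0771 without JG342 replicate 1 to 0.174 without DMSO replicate 1, and with median scaling at 0.0584.

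NDUFV2 (NM_021074), a core subunit that carries an iron-sulfur cluster beside the NADH site, fell most among the complex I genes. It was at 858.79 and 888.67 TPM with DMSO and 635.67 and 588.04 TPM with JG342, so both treated libraries were well below both controls. NDUFV2 fell by 0.51 ± 0.09 on the log2 scale (limma adjusted p = 0.00678). Without DMSO replicate 2 the adjusted p was 0.0677. Transcripts annotated in GENCODE include 2 close copies of NDUFV2, 1 of them a pseudogene, so reads could be split between them.

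The other 3 that fell are accessory subunits. NDUFB3 (NM_001257102), in the membrane arm, was at 217.00 and 231.08 TPM with DMSO and 167.80 and 161.74 TPM with JG342, a change of -0.44 ± 0.09 (limma adjusted p = 0.0127). NDUFS5 (NM_001184979), on the intermembrane-space side, was at 455.35 and 443.29 TPM with DMSO and 333.75 and 338.38 TPM with JG342, a change of -0.42 ± 0.09 (limma adjusted p = 0.0125). In both genes the groups were clearly apart. NDUFS6 (NM_004553), which carries a zinc site in the peripheral arm, was at 406.31 and 421.68 TPM with DMSO and 339.00 and 323.20 TPM with JG342. Its change was -0.32 ± 0.09 (limma adjusted p = 0.0367). Without DMSO replicate 1 and without DMSO replicate 2, the limma adjusted p values were 0.0506 and 0.106 for NDUFB3, 0.0868 and 0.0794 for NDUFS5, and 0.126 and 0.211 for NDUFS6. NDUFS6 was also lost without JG342 replicate 1 (0.0680) and without JG342 replicate 2 (0.123), and under quantile normalization (0.0542). NDUFB3 has a pseudogene copy that matches it at 95.9% identity over 58.3% of the transcript.

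The 2 arms of complex I had similar medians. The peripheral arm had 1 gene higher and 2 lower of 16, or 18.8% called, with a median of -0.05. The membrane arm had 0 higher and 2 lower of 20, or 10.0% called, with a median of -0.07. Of all genes, 18.4% were called. The 7 core subunits encoded in the nucleus had a median of -0.05, with NDUFV2 past the threshold. The other 6 core subunits did not pass, and NDUFS8 was nearly level at 245.87 and 251.56 TPM with DMSO and 250.85 and 249.50 TPM with JG342.

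**Figure D3:**
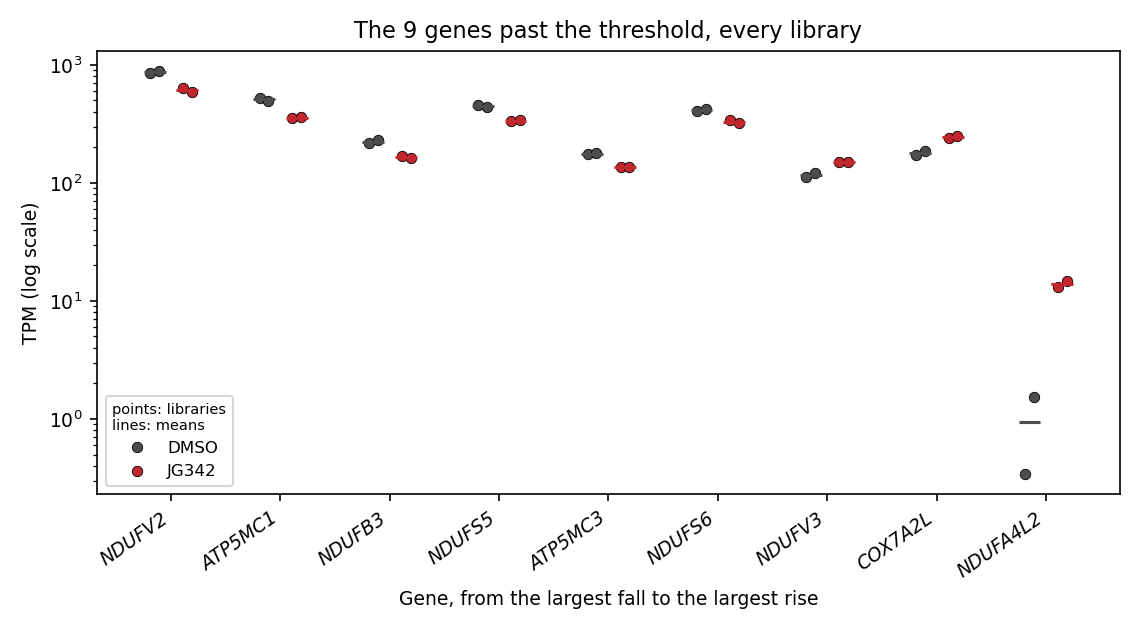
TPM (y axis, log scale) of the 9 genes past the limma threshold (x axis, ordered from the lowest to the highest fold change), with points for the 2 libraries of each group and short lines for their means, grey for DMSO and red for JG342. In each gene the groups are apart, and the DMSO level of NDUFA4L2, at 0.34 and 1.55 TPM, is far below those of the other 8 genes.

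Complex II, succinate dehydrogenase, showed no gene past the limma threshold, 0 of 4 also at an unadjusted p of 0.05 and 0 with the replicate block. Of all genes, 18.4% passed, 33.6% had an unadjusted limma p under 0.05 and 34.9% passed with the block. With 4 genes, these counts cannot be set apart from those shares. The 4 genes had small negative values. SDHA, the flavoprotein that oxidises succinate, was at 236.26 and 233.50 TPM with DMSO and 213.22 and 204.38 TPM with JG342, a difference of -0.17 with a 95% interval from -0.37 to 0.03. It was the only SDH gene whose groups did not overlap, where 28.2% of all genes had both JG342 libraries below both DMSO libraries. SDHB, the iron-sulfur subunit, differed by -0.05 (interval -0.29 to 0.19), and the membrane anchors SDHC and SDHD by -0.04 (-0.32 to 0.24) and -0.07 (-0.30 to 0.16). The intervals of all 4 genes leave room for changes of either sign. SDHA has 5 close copies among annotated transcripts, 3 of them pseudogenes.

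Complex III had the lowest median but no gene past the limma threshold (4 of 10 at an unadjusted p of 0.05, against 33.6% of all genes), with 8 of its 10 genes below 0. In 7 of the 10 both JG342 libraries lay below both DMSO libraries, against 28.2% of all genes. UQCR10, a small subunit, was at 298.14 and 277.37 TPM with DMSO and 230.25 and 240.18 TPM with JG342, a difference of -0.29 (limma adjusted p = 0.0588, and 0.0023 with the replicate block). UQCRH, the hinge protein that helps cytochrome c dock, was at 658.79 and 705.58 TPM with DMSO and 534.45 and 588.80 TPM with JG342, a difference of -0.28 (0.0707, and 0.00134 with the block). CYC1, cytochrome c1, was at 285.73 and 277.90 TPM with DMSO and 218.93 and 244.85 TPM with JG342, also -0.28 (0.0717, and 0.00308 with the block). These 3 genes lay just outside the threshold, and UQCR10 and CYC1 were picked after their values were seen. The large core proteins did not share the pattern: UQCRC1 was at 130.08 and 146.99 TPM with DMSO and 143.03 and 141.21 TPM with JG342, and UQCRC2 at 143.45 and 149.64 TPM with DMSO and 151.74 and 144.21 TPM with JG342. UQCRC2 was also picked after its value was seen. With the block, 5 of the 10 complex III genes passed as lower, against 15.7% of all genes. One of them, UQCRHL, is a retrocopy of UQCRH at 2.95, 6.99, 1.12 and 6.37 TPM in DMSO 1, DMSO 2, JG342 1 and JG342 2. The match, at 97.9% identity, covers 85.4% of the UQCRH transcript and 23.7% of the UQCRHL transcript, so the reads of UQCRHL are uncertain. The block call of UQCRHL was lost with median scaling added (limma adjusted p = 0.0786). With UQCRHL left out, the complex III median was -0.179, still the lowest of the complexes.

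Complex IV had 1 gene of 12 fitted past the threshold, and it rose. That was 8.33% called, against 18.4% of all genes called and 10.8% called as higher. COX7A2L (NM_001319036), also called SCAF1, is a COX7A family protein known for joining complexes III and IV into a supercomplex. It was at 172.56 and 186.69 TPM with DMSO and 241.69 and 251.87 TPM with JG342, with no overlap. COX7A2L rose by 0.46 ± 0.09 on the log2 scale (limma adjusted p = 0.0115). Without DMSO replicate 1 the adjusted p was 0.0879, and without DMSO replicate 2 it was 0.0507. Its share of the summed COX7A level went from 26.5% and 25.7% with DMSO to 33.7% and 35.6% with JG342.

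COX7A2, the ubiquitous form, was at 478.63 and 539.32 TPM with DMSO and 474.85 and 455.32 TPM with JG342, and did not pass, at -0.13. The muscle form COX7A1 was listed at 0.58 TPM in DMSO replicate 2 and at 0 in the other libraries. Of the other 10 fitted complex IV genes, 8 were below 0 and none passed. COX7C had the highest mean level among them, at 803.62 and 832.39 TPM with DMSO and 738.41 and 758.49 TPM with JG342, a difference of -0.13. The lowest fold change was that of COX7B, at 866.97 and 740.10 TPM with DMSO and 687.15 and 683.16 TPM with JG342 (-0.23, limma adjusted p = 0.157, 0.0112 with the replicate block, and 0.0571 with the block and median scaling). COX6A1 was close to it at 601.73 and 618.70 TPM with DMSO and 526.00 and 523.87 TPM with JG342 (-0.22, limma adjusted p = 0.113, and 0.0173 with the block). Groups in COX7B and COX6A1 were apart. COX4I1, COX6B1 and COX8A, the main forms of their subunits, did not pass, at -0.05, -0.11 and 0.05. COX6B2, a testis form of COX6B, was at 18.58 and 17.15 TPM with DMSO and 26.26 and 19.89 TPM with JG342, a difference of 0.34 (limma adjusted p = 0.154, 0.0292 with the replicate block, and 0.0696 with the block and median scaling). It held 2.48% and 2.38% of the COX6B level with DMSO and 3.82% and 2.87% with JG342. COX4I2, COX6A2, COX7B2 and COX8C were not listed under these symbols in the data.

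In complex V, 2 of 19 genes passed, both c subunits and both lower. That was 10.5% called, against 18.4% of all genes called and 7.62% called as lower. The c subunits form the ring that turns as protons pass. In humans 3 genes, ATP5MC1, ATP5MC2 and ATP5MC3, encode the same mature c subunit behind different import signals. The start of the coding stretch they share is shown because the bases that differ there are what separates their reads within it. The lines give 90 bases, 5′ to 3′, from GENCODE release 29 transcripts, and capitals mark the 23 positions at which the 3 genes do not all match.
ATP5MC1: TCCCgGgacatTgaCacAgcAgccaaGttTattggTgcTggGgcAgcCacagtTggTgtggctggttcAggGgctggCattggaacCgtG
ATP5MC2: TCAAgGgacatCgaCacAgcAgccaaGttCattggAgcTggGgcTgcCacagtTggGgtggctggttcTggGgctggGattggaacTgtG
ATP5MC3: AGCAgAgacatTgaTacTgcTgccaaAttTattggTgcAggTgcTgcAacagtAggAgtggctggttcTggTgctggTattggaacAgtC
Over the 231 bases of the shared stretch, ATP5MC1 and ATP5MC2 were 88.3% identical, and ATP5MC3 was 80.1% identical to each. No transcript of another gene matched any of the 3 at 95% identity over 20% of its length.

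ATP5MC1 (NM_001002027) was at 524.06 and 493.82 TPM with DMSO and 354.90 and 360.55 TPM with JG342. ATP5MC3 (NM_001002258) was at 175.93 and 177.70 TPM with DMSO and 135.79 and 135.59 TPM with JG342. In both genes the treated libraries agreed closely and lay well below the controls. ATP5MC1 fell by 0.51 ± 0.09 (limma adjusted p = 0.00646) and ATP5MC3 by 0.38 ± 0.09 (limma adjusted p = 0.0206) on the log2 scale. ATP5MC2, at 660.63 and 631.90 TPM with DMSO and 664.81 and 733.06 TPM with JG342, did not pass (0.11 ± 0.09, limma adjusted p = 0.437). Without DMSO replicate 1 the limma adjusted p was 0.0562 for ATP5MC1, and for ATP5MC3 it ran from 0.0577 to 0.122 over the libraries left out in turn.

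The shares of the 3 genes in the c subunit transcripts were apart between the groups. ATP5MC1 held 38.5% and 37.9% of their sum with DMSO and 30.7% and 29.3% with JG342. ATP5MC2 held 48.6% and 48.5% with DMSO and 57.5% and 59.6% with JG342, and ATP5MC3 held 12.9% and 13.6% against 11.8% and 11.0%. The summed level was 1361 and 1303 TPM with DMSO and 1156 and 1229 TPM with JG342.

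**Figure D4:**
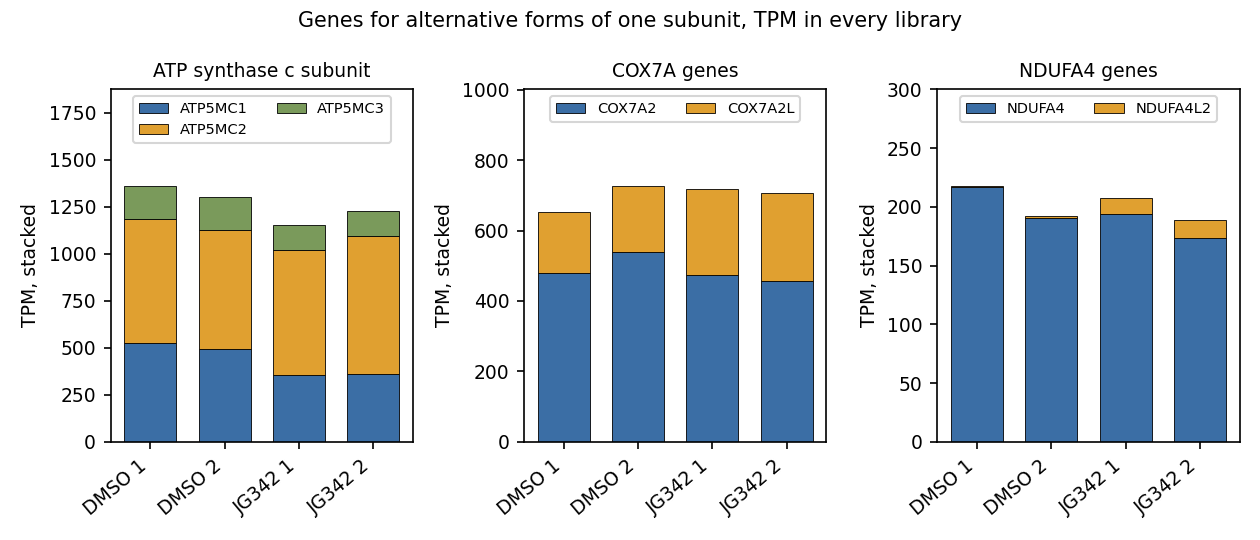
Stacked TPM (y axes, starting at 0, with a scale for each panel) of the c subunit genes, the COX7A genes and the NDUFA4 pair in each of the 4 libraries (x axes). The ATP5MC1 segment is shorter in both JG342 libraries, at 354.90 and 360.55 TPM against 524.06 and 493.82 TPM, while NDUFA4L2 is visible as a cap on NDUFA4 mainly in the JG342 libraries.

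Elsewhere in ATP synthase, the values were small and mostly negative. The 5 subunits of the F1 head, where ATP is made, and its central stalk were all below 0 with a median of -0.09, and none passed with limma (1 of 5 at an unadjusted p of 0.05, against 33.6% of all genes). The 4 subunits of the peripheral stalk, which holds the head still, were also all below 0, with a median of -0.14, and none passed with limma (1 of 4 at an unadjusted p of 0.05). ATP5PF, coupling factor 6, came nearest in the stalk, at 553.94 and 538.48 TPM with DMSO and 437.40 and 469.43 TPM with JG342 (-0.27, limma adjusted p = 0.0681, and 0.00269 with the replicate block); it was picked after its value was seen. ATP5F1E, the small epsilon subunit, was nearly level at 615.46 and 569.42 TPM with DMSO and 577.53 and 598.93 TPM with JG342. The readthrough gene ATP5MF-PTCD1 had the highest fold change of complex V, 0.57, but its libraries overlapped widely, at 21.97 and 7.27 TPM with DMSO and 15.91 and 23.74 TPM with JG342. Its limma adjusted p was 0.347, and 2.68e-04 with the replicate block, a call lost again at 0.343 with the block and median scaling. Its transcript matches PTCD1 at 100% identity over 94.2% of its length, so its reads are uncertain. ATP5MGL, a retrocopy of ATP5MG, was lowest, between 2.77 and 3.05 TPM.

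Promoter windows of RefSeq (GRCh38.p14, 250 bases before to 50 bases after the start) were matched to 68 of the 85 genes. Motifs were searched on both strands, and the shares are descriptions with no test. The NRF1 motif GCATGCGC was in 13 of the 68 windows, or 19.1%, against 3.27% of all 27305 promoters. The ETS motif CCGGAAG was in 29.4% against 10.7%, and the YY1 motif AAGATGGCG in 11.8% against 1.85%. These are the classic motifs of nuclear genes for mitochondrial proteins. Of the genes past the threshold, 4 that fell and 3 that rose had a window, and the NRF1 motif was in 1 that fell, NDUFS6, while the ETS and YY1 motifs were in none. Motifs chosen after the data were seen were ACGTG, bound by HIF, in 26.5% against 21.6%, TGATGNAA, bound by ATF4, in 1.47% against 3.67%, and TGACGTCA, bound by CREB, in 7.35% against 1.98%.

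The windows of ATP5MC1 and ATP5MC2 are shown because ATP5MC1 passed the threshold and ATP5MC2 did not (the difference between them was not tested), and that of NDUFA4L2 because it rose most. Outside the printed bases, the windows of ATP5MC1 and ATP5MC2 both also held the HIF motif ACGTG. Each line gives the 120 bases before the start, 5′ to 3′ on the gene's strand, and capitals mark a motif match: TGACGTCA in ATP5MC1 and GCATGCGC in ATP5MC2.
ATP5MC1: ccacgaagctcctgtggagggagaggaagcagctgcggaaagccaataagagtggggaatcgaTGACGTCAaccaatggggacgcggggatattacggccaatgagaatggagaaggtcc
ATP5MC2: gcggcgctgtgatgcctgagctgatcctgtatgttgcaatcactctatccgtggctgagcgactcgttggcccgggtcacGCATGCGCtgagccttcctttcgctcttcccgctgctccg
NDUFA4L2: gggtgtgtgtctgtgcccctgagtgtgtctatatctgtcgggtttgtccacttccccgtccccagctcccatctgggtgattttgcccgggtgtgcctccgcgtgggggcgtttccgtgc
They lie at chr17:48892667-48892786 on the plus strand, chr12:53676084-53676203 on the minus strand and chr12:57240763-57240882 on the minus strand. None of the 6 motifs was found in the NDUFA4L2 window, which says only that these letters are not in it. The HIF motif was searched only as ACGTG. The printed NDUFA4L2 line holds GCGTG, a form that was not searched.

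Proteins that build or serve the complexes were read from the same fit. Of 50 assembly factors fitted, 3 rose and 2 fell, or 10.0% against 18.4% of all genes, with a median of -0.04. The 5 called act on complexes IV and V. SURF1, which acts early in cytochrome c oxidase assembly, was at 73.04 and 65.63 TPM with DMSO and 87.39 and 90.66 TPM with JG342 (0.36, limma adjusted p = 0.0427). COA5 (28.37 and 26.74 against 39.11 and 37.29 TPM, 0.46, limma adjusted p = 0.0234) and CMC1 (40.37 and 47.94 against 58.79 and 58.71 TPM, 0.41, limma adjusted p = 0.0412) also rose. COA4 fell, from 153.94 and 145.53 to 122.70 and 117.12 TPM (-0.32, limma adjusted p = 0.0468), as did TMEM70, an ATP synthase factor, from 42.89 and 47.44 to 34.62 and 33.33 TPM (-0.40, limma adjusted p = 0.0386). These 5 calls were lost when any 1 of the 4 libraries was left out, at limma adjusted p values from 0.0642 to 0.254, except that of COA5 without JG342 replicate 2. Median scaling also ended the calls of SURF1 (limma adjusted p = 0.1) and CMC1 (0.0689), and quantile normalization those of SURF1 (0.0538), CMC1 (0.0509) and COA4 (0.0763).

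Of 8 partners of the chain, 2 fell, where 7.62% of all genes did. CYCS, the cytochrome c that carries electrons from complex III to complex IV, was at 188.13 and 185.19 TPM with DMSO and 148.83 and 151.43 TPM with JG342, a change of -0.31 (limma adjusted p = 0.0422). NDUFAB1, the mitochondrial acyl carrier protein that is also a complex I subunit, was at 170.10 and 188.41 TPM with DMSO and 134.51 and 140.53 TPM with JG342, a change of -0.38 (limma adjusted p = 0.0282). The groups were apart in both genes, but neither call held when any 1 library was left out, where limma adjusted p values ran from 0.0945 to 0.18 for CYCS and from 0.0508 to 0.201 for NDUFAB1. Quantile normalization also ended the call of CYCS (0.0714). ATP5IF1, the inhibitor of ATP synthase, did not pass, at 457.81 and 465.70 TPM with DMSO and 478.89 and 597.82 TPM with JG342.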

How the data were processed

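RNA of 4 MM.1S libraries was sequenced on a BGISEQ-500, per the labels' protocols. The deposited values are TPM, inferred from library sums of 994463 to 994718. HISAT2 2.0.4, Bowtie2 2.2.5 and RSEM 1.2.12 are listed, without roles, in the submitters' processing notes, and the genome build, annotation and filters are not given in the sources used here. Depth is not recoverable from TPM, so no count test or counting interval was possible.

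Genes averaging 1 TPM or more over the 4 libraries were tested with limma 3.58.1 (R 4.3.3) on log2(TPM + 1), with a mean-variance trend and treatment as the only term, two-sided, with Benjamini-Hochberg adjustment at 0.05 over all 12042 genes. The script was tested on simulated data. The fit left 2 residual and 6.89 prior degrees of freedom. Where leaving out a library leaves a group with 1 library, that library is assumed to vary like the others. The members and lists were chosen with earlier results of these data known. Named genes are those past the threshold, the highest and lowest of each complex by fold change and by mean TPM, all SDH and isoform-group genes, and listed genes past the threshold, at most 6 per list; UQCR10, CYC1, UQCRC2, ATP5PF, NDUFS8, ATP5F1E and ATP5IF1, and NRF1 among the regulators, fall outside it and were chosen after their values were seen.

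Same-numbered libraries share a label prefix whose meaning is not stated. Their deviations from the group means correlated across 12042 genes (Pearson 0.275, Spearman 0.304), which are not independent replicates. The replicate number was tried as a block, as planned from the labels, in which the numbers recur in both groups. All 85 accessions matched RefSeq, and close copies were searched with BLAST 2.17.0 among GENCODE release 29 transcripts, at 95% identity over at least 20% of a transcript.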

Additional observations from a re-analysis of the deposited data

How the results depend on the processing

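The count of all genes past the threshold, 2221, was 4207 with the replicate block, 3985 with the block and median scaling and 828 with no filter on low values, and 767 to 1825 with a library left out, lowest without DMSO replicate 2. The share of higher genes among those called, 58.7%, was 44.6% with median scaling and 42.0% with the block and median scaling. Respiratory genes past the threshold as higher, 3, were 6 with the block, 1 without the mean-variance trend and 1 to 3 with a library left out. Those past it as lower, 6, were 21 with the block, 23 with the block and median scaling, 2 without the trend and 1 to 5 with a library left out. The 9 genes called in the main test were all among those called with the block. With median scaling, with or without the block, the median was -0.132 for complex I, -0.266 for complex III, -0.185 for complex IV and -0.146 for complex V. That scaling also moved the median of all genes, from 0.0275 to -0.0347. Quantile normalization gave -0.0157 for complex I and -0.0379 for complex IV, and leaving out the 10 highest genes gave -0.0868 for complex I. With a library left out, the medians ran from -0.0666 to -0.0199 for complex I, -0.151 to 0.0176 for complex II, -0.234 to -0.127 for complex III and -0.118 to -0.0654 for complex V. Some uncalled genes changed sign. ATP5MGL was -0.00269, COX8A -0.0157 and UQCRC1 -0.029 with median scaling, with or without the block, and quantile normalization gave -0.0718 for ATP5MGL and 0.0062 for COX4I1. With a library left out, values ran from -0.167 to 1.31 for ATP5MF-PTCD1, -0.0459 to 0.152 for COX8A, -0.131 to 0.032 for SDHB, -0.192 to 0.112 for SDHC, -0.141 to 0.00321 for SDHD, -0.0483 to 0.127 for UQCRC1 and -1.41 to 0.392 for UQCRHL. Counting NDUFA4 and NDUFA4L2 in complex IV and leaving out readthrough genes and retrocopies were chosen after seeing the data. Causes of these shifts were not tested. The limits are 2 libraries per group, an unknown depth and 1 cell line, and the block fit rests on 1 residual degree of freedom. Its prior degrees of freedom were infinite, so its p values did not draw on each gene's own spread and can be too small. With the block and median scaling the prior degrees of freedom were 7.49.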

Other observations

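Of 13 genes of coenzyme Q synthesis, 2 fell and 1 rose, or 23.1%, near the 18.4% of all genes that passed, with a median of -0.16. PDSS1, which helps make the isoprenoid tail, was at 29.93 and 34.49 TPM with DMSO and 18.58 and 20.34 TPM with JG342, a change of -0.70 (limma adjusted p = 0.00776, and 0.0739 without DMSO replicate 2). COQ3, a methyltransferase of the ring, was at 13.93 and 22.11 TPM with DMSO and 9.54 and 11.25 TPM with JG342, a change of -0.71 (limma adjusted p = 0.0428, and 0.279 without DMSO replicate 2, 0.112 without JG342 replicate 1). COQ6, a hydroxylase of the ring, rose from 4.94 and 5.67 to 8.68 and 7.84 TPM (0.56, limma adjusted p = 0.0418), a call lost with each library left out, at 0.0614 to 0.201, with median scaling, at 0.0517, and with quantile normalization, at 0.0724.

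Of 8 genes of heme synthesis, 2 rose and none fell, where 10.8% of all genes rose. They encode the last enzymes of the pathway, both in mitochondria. FECH, which inserts iron into the ring, was at 10.45 and 11.96 TPM with DMSO and 21.68 and 19.93 TPM with JG342, a change of 0.84 (limma adjusted p = 0.00483). PPOX, the step before it, was at 20.48 and 22.93 TPM with DMSO and 34.55 and 43.21 TPM with JG342, a change of 0.81 (limma adjusted p = 0.00611). Both calls held with each library left out. The other 6 did not pass, and the list's median was -0.17, opposite in sign to both called genes.

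Among 11 regulators of respiratory genes, 2 fell and none rose, or 18.2% called, about the 18.4% of all genes, with a median of -0.21. TFAM, which packages and transcribes mitochondrial DNA, was at 35.52 and 36.04 TPM with DMSO and 26.34 and 24.35 TPM with JG342, a change of -0.48 (limma adjusted p = 0.0202). TFB2M, a mitochondrial transcription factor, was at 50.32 and 59.63 TPM with DMSO and 41.71 and 37.85 TPM with JG342, a change of -0.45 (limma adjusted p = 0.0335). Without DMSO replicate 1, DMSO replicate 2 and JG342 replicate 2 the limma adjusted p values were 0.0936, 0.118 and 0.0697 for TFAM and 0.0501, 0.233 and 0.107 for TFB2M. NRF1, whose motif was searched in the promoters, did not pass, at 15.59 and 14.75 TPM with DMSO and 13.30 and 15.16 TPM with JG342.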
